A study of Mus musculus with 9 samples.

Results

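The hormone and neurotransmitter receptors of islet cells were examined in mouse alpha cells with a knockdown of an insulin receptor substrate, a protein that passes on the signal of the insulin receptor. They were taken from a list of 49 genes for receptors of hormones, neurotransmitters and nutrients. The list was chosen with earlier results of these data known, and its genes were matched by symbol to the probes of the array. Of the 49 receptors, 42 had a probe that carried their symbol alone, out of 22180 genes measured in this way. Adrb1, Adrb3, Adra1a, Adra1d, Adra2a and Adra2b, which encode adrenergic receptors, and Prlr, the prolactin receptor, were not analysed here.

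The cells were alpha TC6, a line derived from a mouse glucagonoma. All groups carried a lentiviral short hairpin RNA and had been selected with puromycin, with a nonsilencing hairpin in control cells, a hairpin against Irs1 in alphaIRS1KD cells and a hairpin against Irs2 in alphaIRS2KD cells. Total RNA of 3 replicates per group was hybridized to 9 Affymetrix arrays, and no treatment is given for them. The methods describe stable lines and give no number of lines per hairpin, and no source used here says that the 3 replicates of a group came from separate infections, so that the p-values reflect sample-to-sample spread alone, which may be technical, and the effect of a hairpin cannot be told apart from that of its line. The cells of a line were measured together, and a lower signal cannot separate fewer expressing cells from less RNA per cell.

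Islet cells read circulating hormones, neighbouring cells, nerves and nutrients through cell surface receptors, most of which span the membrane in a serpentine fold and act through a heterotrimeric G protein. Gs raises cyclic AMP, Gi lowers it, and Gq releases calcium from internal stores. In alpha cells, somatostatin lowers glucagon secretion through Gi, whereas vasopressin and adrenaline raise it. The natriuretic peptide receptors that carry a cyclase domain signal without a G protein, by making cyclic GMP. Class I cytokine receptors, such as that for growth hormone, signal without a G protein through JAK kinases. Npr3 carries no cyclase domain and clears the peptides.

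Irs1, the target of the first hairpin, had log2 signals of 8.06, 8.09 and 8.07 in control cells, 7.16, 7.12 and 7.22 in alphaIRS1KD cells and 8.10, 8.16 and 8.01 in alphaIRS2KD cells. It was 1.88-fold below control in alphaIRS1KD cells (log2 difference -0.91, adjusted p = 3.19e-05, limma). Irs2 was 1.49-fold lower in alphaIRS2KD cells (log2 difference -0.58, adjusted p = 0.00173, limma), with group means of 10.65 for control, 10.50 for alphaIRS1KD and 10.07 for alphaIRS2KD cells. Array pairs correlated between 0.993 and 0.997, and no pair held identical values. Over all probes, alphaIRS2KD replicate 3 lay nearer to the control arrays (mean Euclidean distance 65.95) and to the alphaIRS1KD arrays (65.49) than to its own group (68.06), and replicate 2 lay 66.16 from control and 66.41 from its own group. Over the 42 receptors, a set chosen with earlier results of these data known, each of the 9 arrays was nearest to its own group. The alphaIRS2KD arrays lay 1.40 to 1.60 from their own group and 2.45 to 2.65 from control.

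Gcg, which encodes glucagon, had mean log2 signals of 13.24 for control, 13.21 for alphaIRS1KD and 13.21 for alphaIRS2KD cells, close to the brightest probes of the arrays (13.53 to 13.61), where a change is hard to see. All 5 measured alpha cell markers of 8 listed were above the background limit, which is the 95th percentile of 1105 odorant receptor genes (4.93). Of the 5, 4 were called in alphaIRS1KD against control, in both directions. Ttr, which encodes transthyretin, and Slc38a5, an amino acid transporter, were lower (log2 differences -0.98 and -0.81, adjusted p = 2.84e-05 and 5.52e-05, limma), and the transcription factor genes Irx1 and Irx2 were higher (0.51 and 0.39, adjusted p = 0.00115 and 0.00197, limma). In alphaIRS2KD cells, Slc38a5 was lower (-0.66, adjusted p = 0.000756, limma) and Irx1 higher (0.36, adjusted p = 0.024, limma). The log2 of the summed signal of the 5 markers was 14.38 to 14.39 in control, 14.02 to 14.06 in alphaIRS1KD and 14.22 to 14.24 in alphaIRS2KD cells. This sum is carried by Gcg, Ttr and Slc38a5, the brightest of the 5, and does not show the rise of Irx1 and Irx2. Of the 7 measured beta cell markers, 0 were called in any comparison, and 0 to 2 per direction had an unadjusted p under 0.05. Their summed signal was 9.02 to 9.08, 9.09 to 9.14 and 9.05 to 9.20 in the same order, with Nkx6-1 the brightest (means 8.05, 8.18 and 8.10). Ins2 (insulin) lay below the limit in every group, with means of 4.06, 4.28 and 4.78, and Iapp (islet amyloid polypeptide) had 5.11, 6.35 and 6.44 on the alphaIRS2KD arrays against means of 4.78 in control and 4.74 in alphaIRS1KD cells (adjusted p = 0.125 against control, limma). Of the 4 delta cell markers, Rbp4, a retinol carrier, was called lower in both knockdowns, with means of 11.98 for control, 11.49 for alphaIRS1KD and 11.65 for alphaIRS2KD cells. The summed delta cell signal was 11.99 to 12.04, 11.50 to 11.57 and 11.61 to 11.76, which is almost that of Rbp4 alone. The other delta cell markers, Sst (somatostatin), Hhex and Ptprz1, were far dimmer and were not called. Sst lay between means of 5.43 and 5.51, and Hhex had means of 5.08, 5.01 and 4.90 and Ptprz1 of 2.56, 2.66 and 2.53 in the same order. The part of these marker changes in the receptor values was not tested.

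Of the 42 receptors, 30 had a mean log2 signal above the background limit in at least 1 group. The other 12 were Glp2r, Adcyap1r1, Sstr1, Adra2c, Drd2, Chrm3, Cckar, Npy2r, Agtr1a, Npr2, Ffar2 and Lepr. Adra1b passed in control cells alone and Ffar1 in alphaIRS1KD cells alone. By the same rule, 13832 of all 22180 genes passed. Probes differ in affinity, so the limit describes dim signal and does not test for expression, and levels were compared only within a gene.

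**Figure D1:**
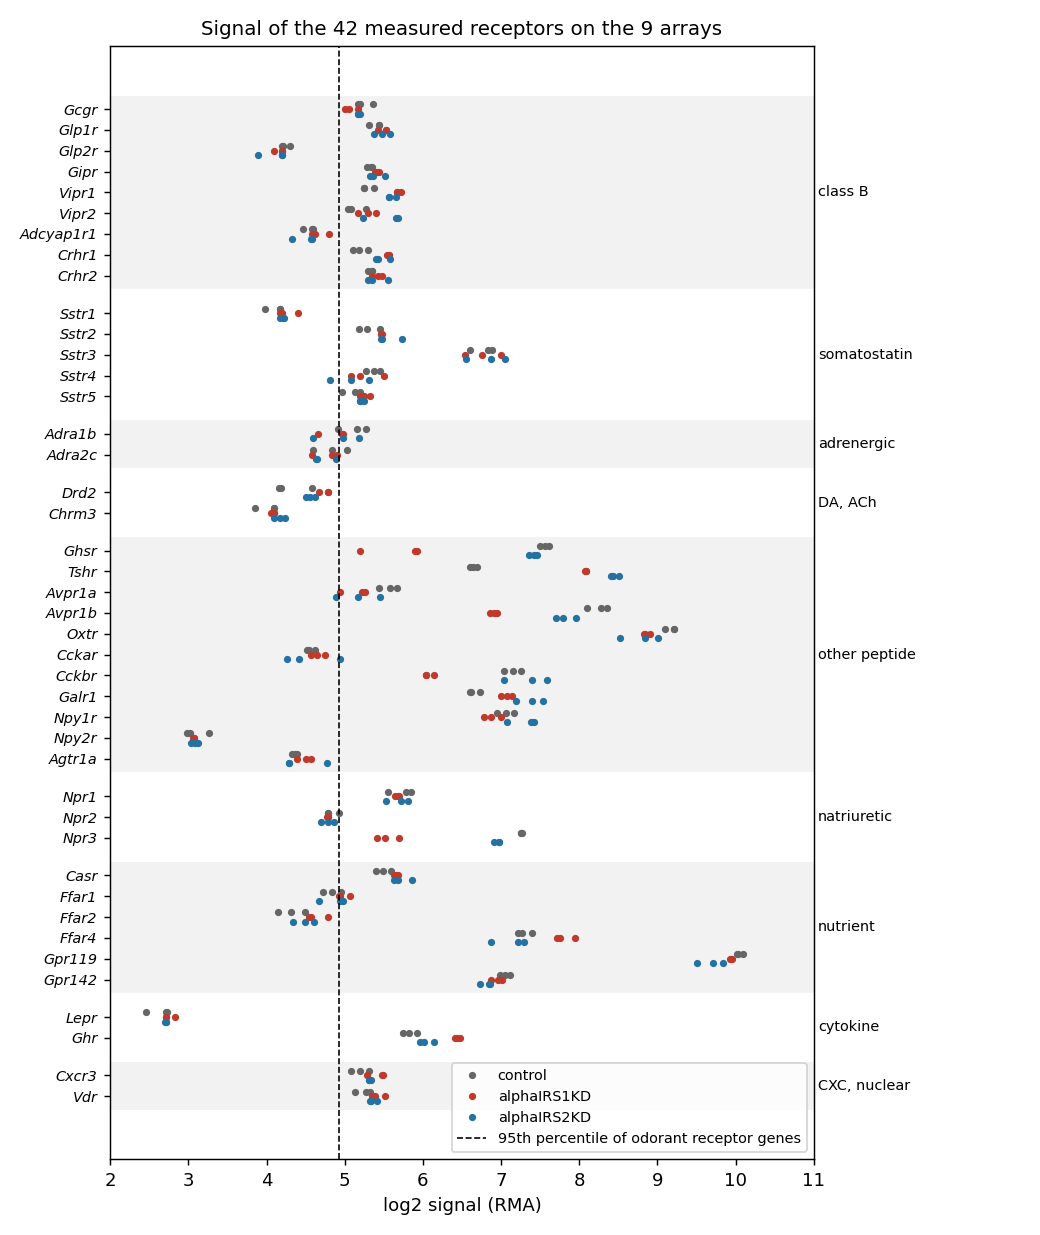
Log2 signal (x axis) of each of the 42 measured receptors (y axis, grouped by family) on the 3 control (grey), 3 alphaIRS1KD (red) and 3 alphaIRS2KD arrays (blue), with the background limit of 4.93 as a dashed line. Ghsr, Npr3, Avpr1b and Cckbr have their alphaIRS1KD points to the left of all others, and Tshr has its control points to the left of all others.

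The RNA signals of the receptors were compared between groups, each knockdown against control and the knockdowns with each other. The arrays do not measure receptor protein or what the cells could sense. All 3 comparisons came from 1 fit, and the knockdowns share the same control arrays. In alphaIRS1KD cells, 11 of 42 receptors differed from control at an adjusted p under 0.05. Higher were 7 receptors (16.7%), namely Tshr, Ghr, Ffar4, Drd2, Galr1, Vipr1 and Crhr1, beside 2.98% of all genes called higher. Lower were 4 (9.52%), namely Ghsr, Npr3, Avpr1b and Cckbr, beside 3.68% of all genes called lower. In alphaIRS2KD cells, 3 receptors (7.14%) were higher than in control, namely Tshr, Galr1 and Vipr1, beside 0.893% of all genes, and 1 (2.38%), Avpr1b, was lower, beside 0.694% of all genes. Of the 42, 31 were called in no comparison. The receptors were chosen with earlier results of these data known. Their shares beside those of all genes, here and below, therefore describe the calls and do not test the receptors as a set.

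Between the knockdowns, 2 receptors (4.76%) were higher in alphaIRS1KD than in alphaIRS2KD cells, Ffar4 and Ghr, beside 1.71% of all genes, and 5 (11.9%) were lower, Ghsr, Npr3, Cckbr, Avpr1b and Tshr, beside 2.42% of all genes. The median log2 fold change over the 42 receptors was 0.09 in alphaIRS1KD against control, 0.07 in alphaIRS2KD against control and 0.03 between the knockdowns, and the medians over all genes were 0.01, -0.00 and 0.01. Calls were thus made in both directions, with medians near 0. In every called comparison of a receptor, the arrays of the groups did not overlap. Such separation was also seen without a call, for example for Gipr, Casr and Ffar2 in alphaIRS1KD against control cells. The lack of overlap therefore describes the calls and is no separate evidence for them.

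**Figure D2:**
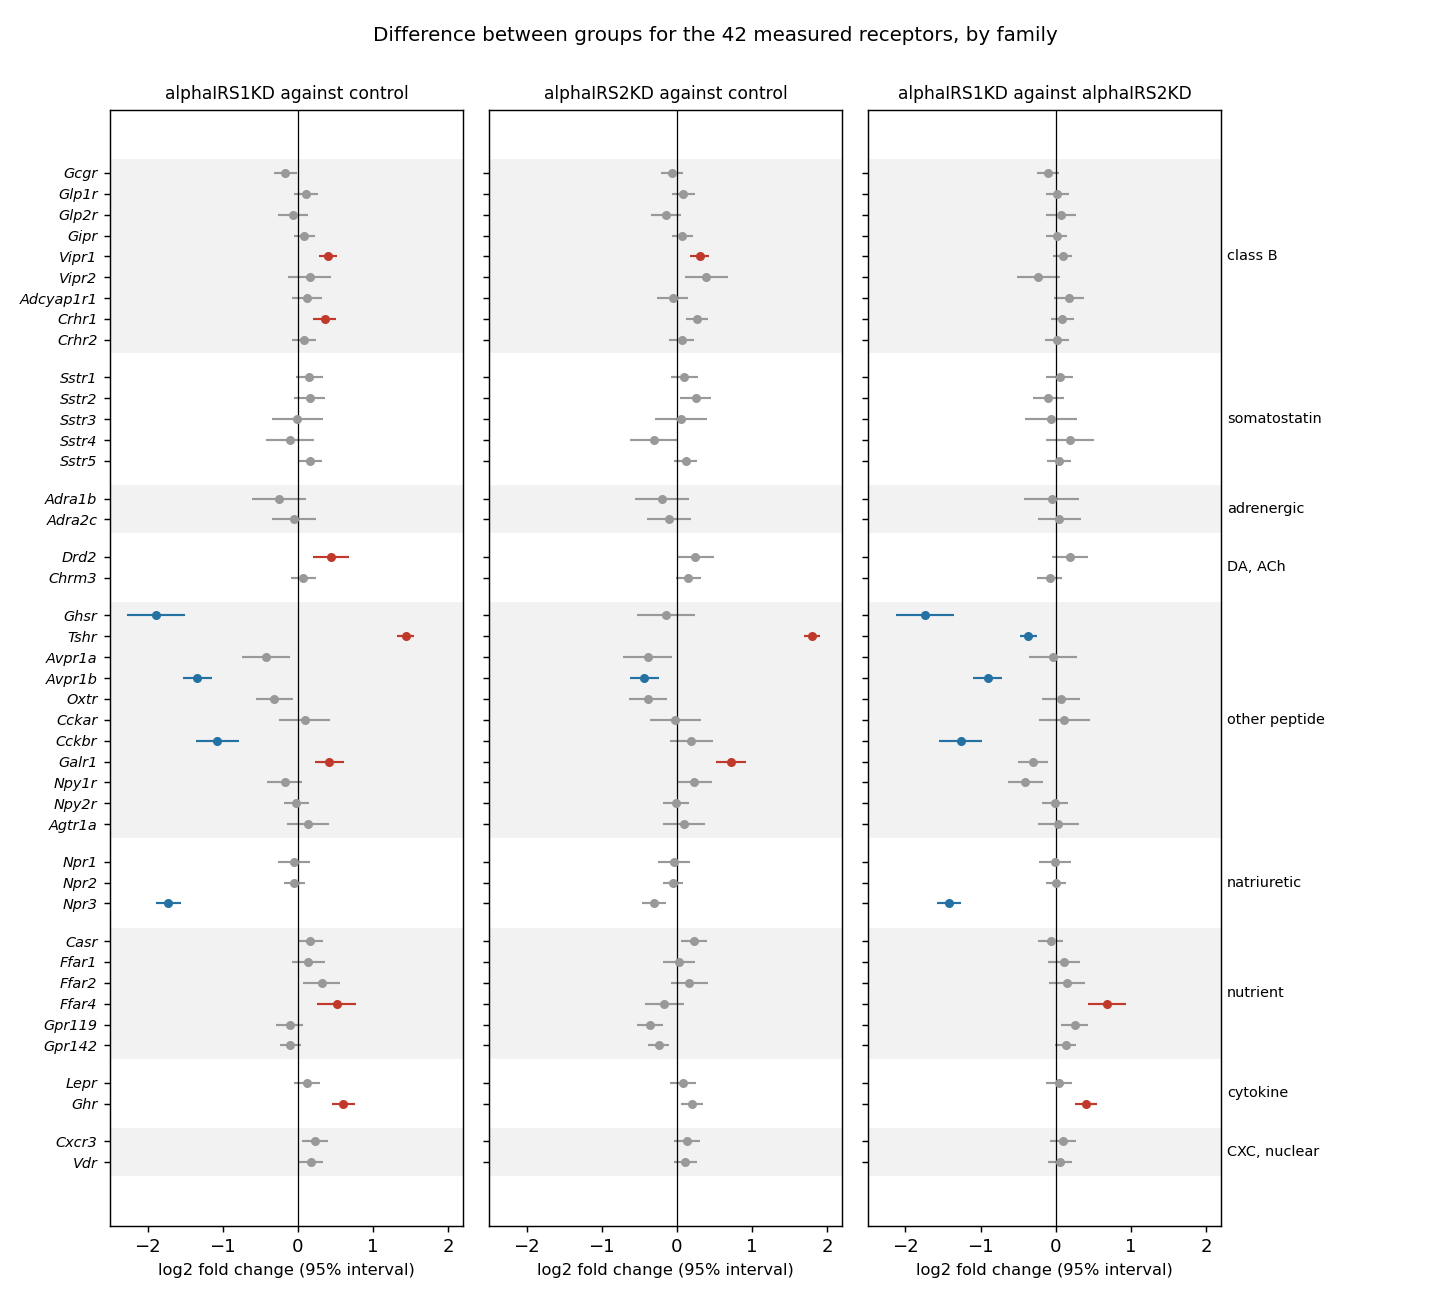
Log2 fold change (x axes) with its 95% interval from limma for the 42 receptors (y axis, by family) in the 3 comparisons, with receptors called higher in red, called lower in blue and not called in grey. Against control, Ghsr lies at -1.89 and Npr3 at -1.72 in alphaIRS1KD cells and Tshr at 1.80 in alphaIRS2KD cells.

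A group of 4 receptors was lower in alphaIRS1KD cells than in both control and alphaIRS2KD cells (9.52% of the receptors, beside 1.7% of all genes lower than in both). These were Ghsr, the ghrelin receptor, Avpr1b, the V1b vasopressin receptor, and Cckbr, the receptor of cholecystokinin and gastrin, which all act through Gq, together with Npr3, the clearance receptor that removes natriuretic peptides. Since both comparisons contain the same alphaIRS1KD arrays, they are not independent of each other.

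Ghsr, known in islets chiefly from delta cells, had log2 signals of 7.62, 7.56 and 7.50 in control cells, 5.92, 5.89 and 5.19 in alphaIRS1KD cells and 7.46, 7.42 and 7.36 in alphaIRS2KD cells. All alphaIRS1KD arrays lay more than 1 unit below every other array, and replicate 3 lay lowest. The receptor was 3.70-fold below control in alphaIRS1KD cells (log2 difference -1.89 with an SE of 0.17, adjusted p = 0.000259, limma) and 3.34-fold lower than in alphaIRS2KD cells (-1.74, adjusted p = 0.000657, limma). Its spread in alphaIRS1KD cells (SD 0.41, n = 3) was wider than in control (SD 0.06) and alphaIRS2KD cells (SD 0.05). Among the delta cell markers in alphaIRS1KD against control, Rbp4 was lower (-0.49, adjusted p = 0.000884, limma). Sst, at a difference of 0.05, gave no call (adjusted p = 0.791, limma), and neither did Hhex and Ptprz1. The part of these markers in the value of Ghsr was not tested.

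Npr3 was the most evenly measured of the 4 in control cells, at 7.27, 7.25 and 7.26. It had 5.51, 5.41 and 5.69 in alphaIRS1KD cells and 6.97, 6.98 and 6.91 in alphaIRS2KD cells, so that the 3 groups were apart on every array. In alphaIRS1KD cells it was 3.30-fold lower than in control (log2 difference -1.72 with an SE of 0.07, adjusted p = 2.42e-06, limma) and 2.67-fold lower than in alphaIRS2KD cells (adjusted p = 2.31e-05, limma). The difference of -0.31 between alphaIRS2KD and control cells did not pass the test (95% interval -0.47 to -0.15, adjusted p = 0.0881, limma).

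The cyclase-bearing relatives of Npr3 gave no call. Npr1, the receptor of atrial and B-type peptides, had means of 5.73 for control, 5.67 for alphaIRS1KD and 5.69 for alphaIRS2KD cells, and the 95% interval of its change in alphaIRS1KD cells was -0.27 to 0.15. A dimmer second probe of Npr1 was not called either, with log2 fold changes of 0.03 in alphaIRS1KD and -0.20 in alphaIRS2KD cells. Npr2, the receptor of C-type peptide, lay below the background limit at 4.83, 4.78 and 4.78. In alphaIRS1KD cells, 1 of the 3 natriuretic peptide receptors, Npr3, was called lower, beside 3.68% of all genes. Npr1 lay less than 1 unit above the background limit and Npr2 below it. A fall is hard to see at such signals, so the lack of a call says little about these 2 receptors.

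Avpr1b, through which vasopressin acts on pituitary corticotrophs and on alpha cells, had signals of 8.36, 8.28 and 8.10 in control cells. They were 6.95, 6.86 and 6.91 in alphaIRS1KD cells and 7.79, 7.96 and 7.70 in alphaIRS2KD cells, and the 3 groups did not overlap. It was 2.53-fold below control in alphaIRS1KD cells (log2 difference -1.34 with an SE of 0.09, adjusted p = 3.64e-05, limma) and 1.88-fold lower than in alphaIRS2KD cells (-0.91, adjusted p = 0.000551, limma). Avpr1b was also the only receptor called lower in both knockdowns than in control, beside 0.509% of all genes. In alphaIRS2KD cells the difference was 1.35-fold (log2 difference -0.43, adjusted p = 0.0466, limma), and leaving out any single array other than control replicate 3 or alphaIRS2KD replicate 2 ended that call (adjusted p from 0.0831 to 0.168, limma).

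The 2 close relatives of Avpr1b had lower means in both knockdowns without passing the test. Avpr1a, the V1a vasopressin receptor, had means of 5.56 for control, 5.14 for alphaIRS1KD and 5.17 for alphaIRS2KD cells (adjusted p = 0.143 and 0.336 against control, limma). Oxtr, the oxytocin receptor, had 9.09, 9.21 and 9.21 in control cells, 8.83, 8.90 and 8.84 in alphaIRS1KD cells and 9.01, 8.84 and 8.52 in alphaIRS2KD cells. Every knockdown array was below every control array, with log2 fold changes of -0.31 in alphaIRS1KD (95% interval -0.56 to -0.06, adjusted p = 0.163, limma) and -0.38 in alphaIRS2KD cells (-0.63 to -0.13, adjusted p = 0.197, limma).

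Cckbr had signals of 7.25, 7.04 and 7.15 in control cells, 6.14, 6.04 and 6.04 in alphaIRS1KD cells and 7.59, 7.39 and 7.04 in alphaIRS2KD cells. The alphaIRS1KD arrays stood apart, while the control and alphaIRS2KD arrays overlapped. Its log2 fold change in alphaIRS1KD cells was -1.07 against control (SE 0.12, adjusted p = 0.00109, limma) and -1.27 against alphaIRS2KD cells (adjusted p = 0.000715, limma). Cckar, the other cholecystokinin receptor, lay below the background limit in all groups (means 4.56, 4.65 and 4.54) and was not called.

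**Figure D3:**
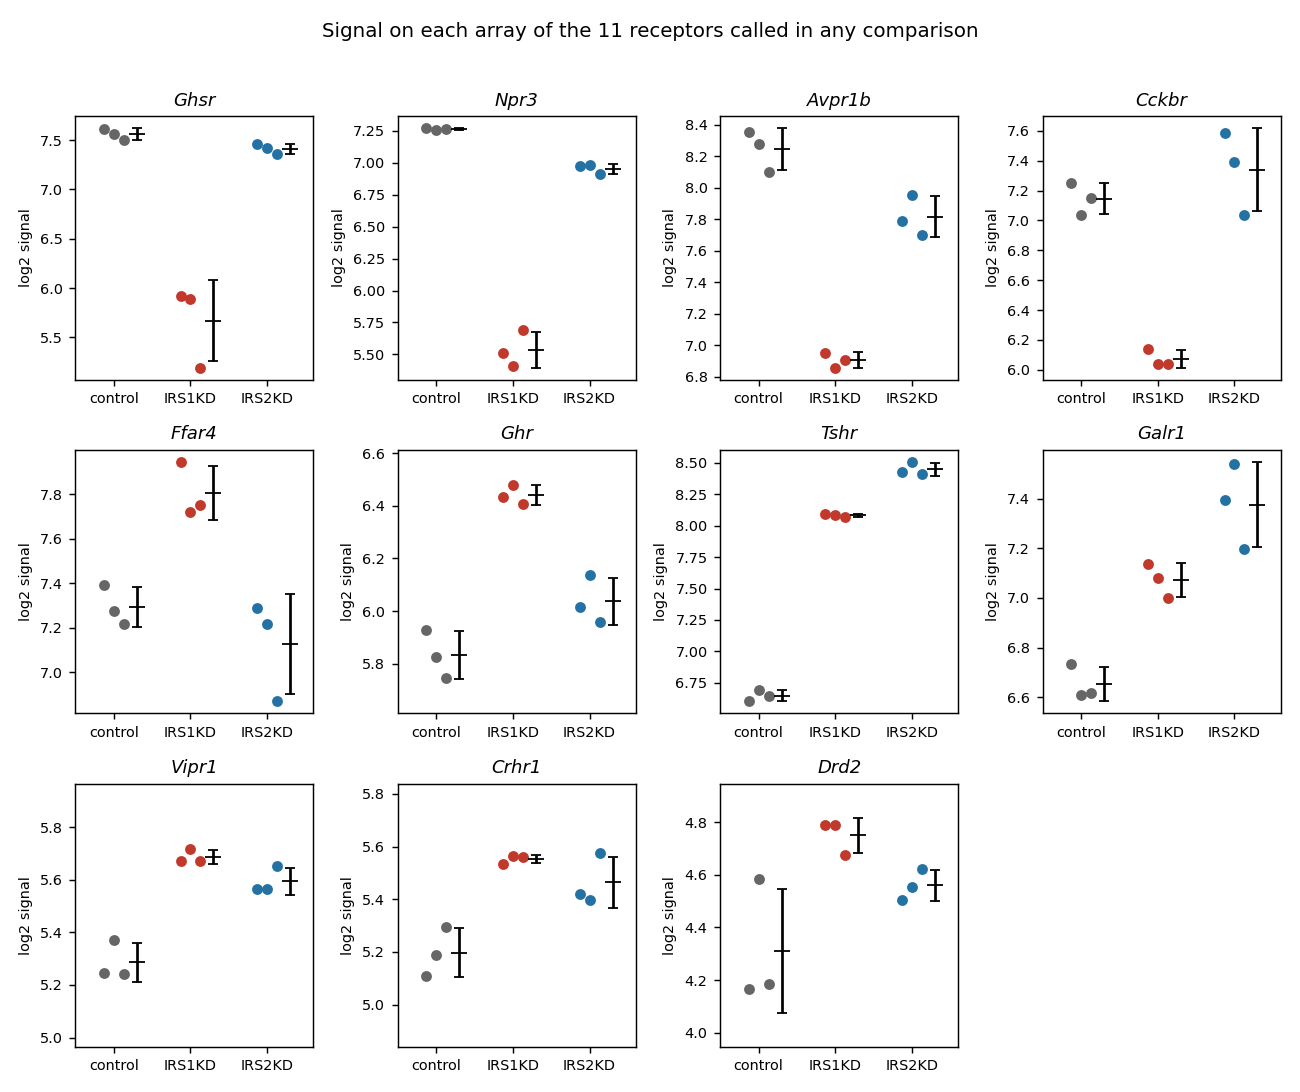
Log2 signal on each array (y axes, each panel with its own range) of the 11 receptors called in any comparison, for control (grey), alphaIRS1KD (red) and alphaIRS2KD cells (blue), with the mean and SD of the 3 arrays in black. In alphaIRS1KD cells the mean of Ghsr was 5.67 and that of Npr3 5.54, against 7.56 and 7.26 in control cells.

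The promoters of Ghsr, Cckbr and Npr3, the receptors of this group for which a sequence was at hand, are shown with that of Ffar4, which moved the other way. They are the RefSeq windows of mouse build GRCm38.p6 from 250 bases before to 50 after the annotated start, and 34 of the 42 receptors had 1 or more such windows. Capitals mark matches to 3 motifs searched on both strands, namely TGTTTAC, the core bound by forkhead factors such as FOXO, TGACG, the cyclic AMP response element half-site, and TTGGCA, the nuclear factor I half-site. The windows lie at chr3:27371101-27371400 (plus strand) for Ghsr, chr7:105425481-105425780 (plus strand) for Cckbr, chr15:11907322-11907621 (minus strand) for Npr3 and chr19:38096829-38097128 (plus strand) for Ffar4.
Ghsr: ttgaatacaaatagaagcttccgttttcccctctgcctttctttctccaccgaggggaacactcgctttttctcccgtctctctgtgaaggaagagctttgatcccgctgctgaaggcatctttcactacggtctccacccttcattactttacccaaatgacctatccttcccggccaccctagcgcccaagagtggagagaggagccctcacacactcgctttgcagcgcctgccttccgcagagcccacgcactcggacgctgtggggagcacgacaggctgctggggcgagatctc
Cckbr: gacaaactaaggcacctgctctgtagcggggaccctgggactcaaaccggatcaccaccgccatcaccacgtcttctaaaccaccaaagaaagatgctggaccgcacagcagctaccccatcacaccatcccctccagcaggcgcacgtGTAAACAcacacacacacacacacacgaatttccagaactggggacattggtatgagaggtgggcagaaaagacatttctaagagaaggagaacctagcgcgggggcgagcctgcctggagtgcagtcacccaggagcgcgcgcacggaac
Npr3: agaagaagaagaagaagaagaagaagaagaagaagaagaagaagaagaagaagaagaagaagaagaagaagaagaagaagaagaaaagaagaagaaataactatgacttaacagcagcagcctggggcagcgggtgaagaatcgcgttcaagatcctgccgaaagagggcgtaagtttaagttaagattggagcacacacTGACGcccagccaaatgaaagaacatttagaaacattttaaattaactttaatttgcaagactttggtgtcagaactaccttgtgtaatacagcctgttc
Ffar4: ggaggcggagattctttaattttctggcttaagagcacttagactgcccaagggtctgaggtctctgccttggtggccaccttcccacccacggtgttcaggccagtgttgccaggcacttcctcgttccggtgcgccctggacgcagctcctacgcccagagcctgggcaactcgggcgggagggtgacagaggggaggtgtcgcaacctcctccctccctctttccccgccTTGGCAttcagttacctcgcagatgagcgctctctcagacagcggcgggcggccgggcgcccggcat

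The window of Ghsr holds none of the 3 motifs, that of Cckbr 1 forkhead core, that of Npr3 1 cyclic AMP half-site and that of Ffar4 1 nuclear factor I half-site. Ghr, which moved in the direction of Ffar4, has windows that hold none of the 3 motifs and are not shown. The forkhead core was found in 3.65% of 32851 promoter windows and in 2.38% of the 42 windows that belonged to these receptors. The half-sites were found in 20.8% and 16.7% (TGACG) and in 14.1% and 9.52% (TTGGCA) of these windows. GC content was 56.3% for Ghsr, 57.0% for Cckbr, 39.0% for Npr3, whose window opens with a long purine repeat, and 63.7% for Ffar4. These matches describe the letters of the windows only.

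A pair of receptors was higher in alphaIRS1KD cells than in both other groups (4.76%, beside 1.31% of all genes). Ffar4, also known as GPR120, senses long-chain fatty acids and is known in islets from delta cells. It had signals of 7.39, 7.27 and 7.22 in control cells, 7.95, 7.72 and 7.75 in alphaIRS1KD cells and 7.29, 7.22 and 6.87 in alphaIRS2KD cells, with every alphaIRS1KD array above the rest. The difference was 1.43-fold against control (log2 difference 0.51 with an SE of 0.11, adjusted p = 0.0289, limma) and 1.60-fold against alphaIRS2KD cells (0.68, adjusted p = 0.0113, limma). Leaving out any single control or alphaIRS1KD array ended the call against control (adjusted p from 0.0546 to 0.108, limma), and leaving out alphaIRS1KD replicate 1 ended that against alphaIRS2KD cells (adjusted p = 0.0503).

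Ghr, the growth hormone receptor, signals through JAK2 and STAT5. Its signals were 5.93, 5.83 and 5.75 in control cells, 6.43, 6.48 and 6.41 in alphaIRS1KD cells and 6.02, 6.14 and 5.96 in alphaIRS2KD cells. No arrays overlapped between groups. The receptor was 1.52-fold above control in alphaIRS1KD cells (log2 difference 0.61 with an SE of 0.07, adjusted p = 0.000791, limma) and 1.32-fold above alphaIRS2KD cells (0.40, adjusted p = 0.011, limma), and without alphaIRS1KD replicate 2 the latter had an adjusted p of 0.0516. In alphaIRS2KD cells its log2 fold change of 0.20 did not pass the test (adjusted p = 0.267, limma). Lepr, the leptin receptor and the other measured cytokine receptor of the list, had means between 2.63 and 2.75, below the background limit.

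In both knockdowns, Tshr, Galr1 and Vipr1 were higher than in control (7.14% of the receptors, beside 0.577% of all genes), in comparisons that share the control arrays. Tshr, the receptor of thyrotropin, acts through Gs and is best known from thyroid follicular cells. It had log2 signals of 6.61, 6.70 and 6.64 in control cells, 8.09, 8.08 and 8.07 in alphaIRS1KD cells and 8.43, 8.51 and 8.41 in alphaIRS2KD cells. The groups were separate, with alphaIRS2KD cells the highest. Tshr was 2.70-fold higher in alphaIRS1KD (log2 difference 1.43 with an SE of 0.05, adjusted p = 1.74e-06, limma) and 3.48-fold higher in alphaIRS2KD cells (1.80, adjusted p = 1.46e-06, limma). The knockdowns differed by 0.37 on the log2 scale, the signal being lower in alphaIRS1KD cells (adjusted p = 0.00391, limma).

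Galr1, a Gi-coupled receptor of galanin, had signals of 6.73, 6.61 and 6.62 in control cells, 7.14, 7.08 and 7.00 in alphaIRS1KD cells and 7.39, 7.54 and 7.20 in alphaIRS2KD cells. The order of the groups was that of Tshr, and no arrays overlapped. Relative to control it was 1.34-fold higher in alphaIRS1KD cells (log2 difference 0.42, adjusted p = 0.0221, limma) and 1.65-fold higher in alphaIRS2KD cells (0.72, adjusted p = 0.00451, limma), and the difference between the knockdowns did not pass the test (-0.30, adjusted p = 0.112, limma). The call in alphaIRS1KD cells was lost without control replicate 2 or 3 or without alphaIRS1KD replicate 1 or 2 (adjusted p from 0.0802 to 0.0857, limma).

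Vipr1, a Gs-coupled receptor of vasoactive intestinal peptide and PACAP, had 5.25, 5.37 and 5.24 in control cells, 5.67, 5.72 and 5.67 in alphaIRS1KD cells and 5.56, 5.56 and 5.65 in alphaIRS2KD cells. Every knockdown array was above every control array, at signals less than 1 unit above the background limit. The differences were 1.32-fold in alphaIRS1KD (log2 difference 0.40, adjusted p = 0.0028, limma) and 1.24-fold in alphaIRS2KD cells (0.31, adjusted p = 0.0319, limma). The latter was lost when any array other than control replicate 2 was left out (adjusted p from 0.0599 to 0.129, limma).

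Crhr1 and Drd2 were called in alphaIRS1KD against control cells and in no other comparison, and the difference between the knockdowns had an adjusted p of 0.597 for Crhr1 and 0.447 for Drd2 (limma). Crhr1, the Gs-coupled receptor of corticotropin-releasing hormone, had 5.11, 5.19 and 5.29 in control cells, 5.53, 5.56 and 5.56 in alphaIRS1KD cells and 5.42, 5.40 and 5.58 in alphaIRS2KD cells. All these signals were less than 1 unit above the background limit. The log2 fold change was 0.36 in alphaIRS1KD (adjusted p = 0.0135, limma) and 0.27 in alphaIRS2KD cells (adjusted p = 0.123, limma), and the former lost its call without control replicate 1 or 2 or alphaIRS1KD replicate 2 or 3 (adjusted p from 0.0516 to 0.0551). Drd2, a Gi-coupled dopamine receptor, lay below the background limit on all arrays, between 4.17 and 4.79. The call of Drd2 in alphaIRS1KD cells, at a log2 difference of 0.44 from control (adjusted p = 0.0439, limma) was lost without any single array other than control replicate 2 (adjusted p from 0.0567 to 0.151).

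Receptors that define the glucagon axis gave no call. Group means of Gcgr, Glp1r and Gipr ran from 5.08 to 5.50, near the background limit of 4.93, where a change is hard to see. Gcgr, the glucagon receptor, had means of 5.24 for control, 5.08 for alphaIRS1KD and 5.18 for alphaIRS2KD cells (log2 fold change -0.17 in alphaIRS1KD, 95% interval -0.32 to -0.02, adjusted p = 0.22, limma). For Glp1r and Gipr, the incretin receptors, the intervals of the change in alphaIRS1KD cells were -0.05 to 0.26 and -0.05 to 0.22. Across the 9 class B receptors, the family of glucagon and secretin receptors, 7 were above the background limit. Vipr1 and Crhr1 were called higher in alphaIRS1KD cells, beside 2.98% of all genes, and Vipr1 in alphaIRS2KD cells, beside 0.893%. Crhr2, the urocortin receptor, had means of 5.33, 5.42 and 5.40.

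None of the 5 somatostatin receptors was called by limma in any comparison, and 1 had an unadjusted p under 0.05 in each knockdown against control, both higher. These were Sstr5 in alphaIRS1KD (0.16, adjusted p = 0.264) and Sstr2, through which somatostatin acts on alpha cells, in alphaIRS2KD cells (0.25, 95% interval 0.05 to 0.46, adjusted p = 0.326). The changes of the family ran from -0.11 to 0.16 in alphaIRS1KD and from -0.30 to 0.25 in alphaIRS2KD cells. Sstr3, at means of 6.77, 6.76 and 6.83, varied by up to 0.25 (SD, n = 3) within a group, and Sstr4 had means of 5.37, 5.26 and 5.06. Of 8 adrenergic receptors, Adra1b and Adra2c were measured, near or below the limit, and neither was called.

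Nutrient receptors other than Ffar4 also gave no call. Gpr119, a Gs-coupled receptor of lipid amides, had 10.09, 10.03 and 10.02 in control cells, 9.93, 9.95 and 9.93 in alphaIRS1KD cells and 9.71, 9.84 and 9.51 in alphaIRS2KD cells. The 3 groups did not overlap, and the difference of -0.36 in alphaIRS2KD cells missed the threshold (95% interval -0.54 to -0.18, adjusted p = 0.0768, limma). Gpr142, a receptor of tryptophan, had a log2 fold change of -0.24 in alphaIRS2KD cells (adjusted p = 0.139), Casr, the calcium-sensing receptor, 0.23 in the same cells (adjusted p = 0.26), and Ffar2, a receptor of short-chain fatty acids, 0.32 in alphaIRS1KD cells from below the limit (adjusted p = 0.147). Ffar1, the long-chain fatty acid receptor known from beta cells, was at the limit, with means of 4.84, 4.98 and 4.87.

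Npy1r, a neuropeptide Y receptor, had means of 7.06 for control, 6.88 for alphaIRS1KD and 7.29 for alphaIRS2KD cells. The knockdowns differed by -0.41 (95% interval -0.64 to -0.17, adjusted p = 0.0699, limma), which missed the threshold. Unadjusted p-values under 0.05 were also found for Vipr2 in alphaIRS2KD cells (0.39, adjusted p = 0.264) and for Cxcr3 (0.22, adjusted p = 0.146) and Vdr, the vitamin D receptor (0.17, adjusted p = 0.224), in alphaIRS1KD cells. In all, limma gave an unadjusted p under 0.05 to 11 receptors higher and 7 lower in alphaIRS1KD against control, beside 8.74% and 9.13% of all genes, and to 9 higher and 6 lower in alphaIRS2KD against control, beside 5.53% and 5.28% of all genes.

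Grouped by their main coupling after the values had been seen, the 13 Gq-coupled receptors held 3 of the 4 called lower in alphaIRS1KD cells and 1 called higher (Ffar4), with a median log2 fold change of -0.10. Of the 11 Gs-coupled receptors, 3 were called higher (Tshr, Vipr1 and Crhr1) and 0 lower, with a median of 0.11, and of the 12 Gi-coupled receptors 2 were higher (Galr1 and Drd2) and 0 lower, with a median of 0.16. In alphaIRS2KD cells the calls were 0 higher and 1 lower for Gq, 2 higher and 0 lower for Gs and 1 higher and 0 lower for Gi. Over all genes, 2.98% were called higher and 3.68% lower in alphaIRS1KD cells, and 0.893% and 0.694% in alphaIRS2KD cells. Npr3, called lower in alphaIRS1KD cells, was counted in none of these classes. This grouping is a description, and no test was made of it.

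The ligands of these receptors were next examined, since a cell can make both. All 41 listed genes for ligands and the enzymes that make them were measured. In alphaIRS1KD cells 1 was called higher and 2 lower, in alphaIRS2KD cells 1 higher and 1 lower, and between the knockdowns 1 was called (Ddc). The shares of all genes called were 2.98% higher and 3.68% lower in alphaIRS1KD and 0.893% higher and 0.694% lower in alphaIRS2KD cells, and the ligand counts in alphaIRS1KD cells were near these shares. Cck, the precursor of cholecystokinin and thus of a ligand of Cckbr, had signals of 6.12, 6.07 and 5.77 in control cells, 7.47, 7.27 and 7.17 in alphaIRS1KD cells and 7.22, 7.26 and 7.48 in alphaIRS2KD cells. All knockdown arrays were above all control arrays, with log2 fold changes of 1.32 (adjusted p = 0.000229, limma) and 1.34 (adjusted p = 0.000855, limma). In alphaIRS1KD cells the receptor Cckbr was lower where Cck was higher, whereas in alphaIRS2KD cells Cckbr was not called.

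Th, the rate-limiting enzyme of catecholamine synthesis, was lower in both knockdowns, with means of 6.74 in control, 6.12 in alphaIRS1KD (log2 difference -0.62, adjusted p = 0.00469, limma) and 6.21 in alphaIRS2KD cells (-0.53, adjusted p = 0.0318, limma). Ddc, the next enzyme toward dopamine, was 0.27 lower in alphaIRS1KD than in alphaIRS2KD cells on the log2 scale (adjusted p = 0.0167, limma). Its control mean of 8.88 was close to the alphaIRS1KD mean of 8.83, and the alphaIRS2KD mean was 9.10. Neither knockdown passed the test against control for Ddc (-0.05, adjusted p = 0.665 for alphaIRS1KD, and 0.22, adjusted p = 0.0796 for alphaIRS2KD, limma). Every alphaIRS2KD array lay above the control arrays and every alphaIRS1KD array below them. Npy, the precursor of neuropeptide Y, had 6.16, 5.95 and 6.42 in control cells and 5.59, 5.21 and 5.32 in alphaIRS1KD cells (-0.80, adjusted p = 0.00673, limma). The alphaIRS2KD arrays, at 5.60, 5.76 and 5.76, also lay below control without passing the test (-0.47, adjusted p = 0.175, limma). The knockdowns did not differ by the test (adjusted p = 0.26, limma). The ligand genes of the other called receptors gave no call. Ghrl (ghrelin) had means of 5.12, 5.01 and 5.12, Avp (vasopressin) 5.90, 5.93 and 5.87, Gal (galanin) 4.86, 4.88 and 5.01 and Tshb, the specific subunit of thyrotropin, 4.13, 4.11 and 4.03 in control, alphaIRS1KD and alphaIRS2KD cells.

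**Figure D4:**
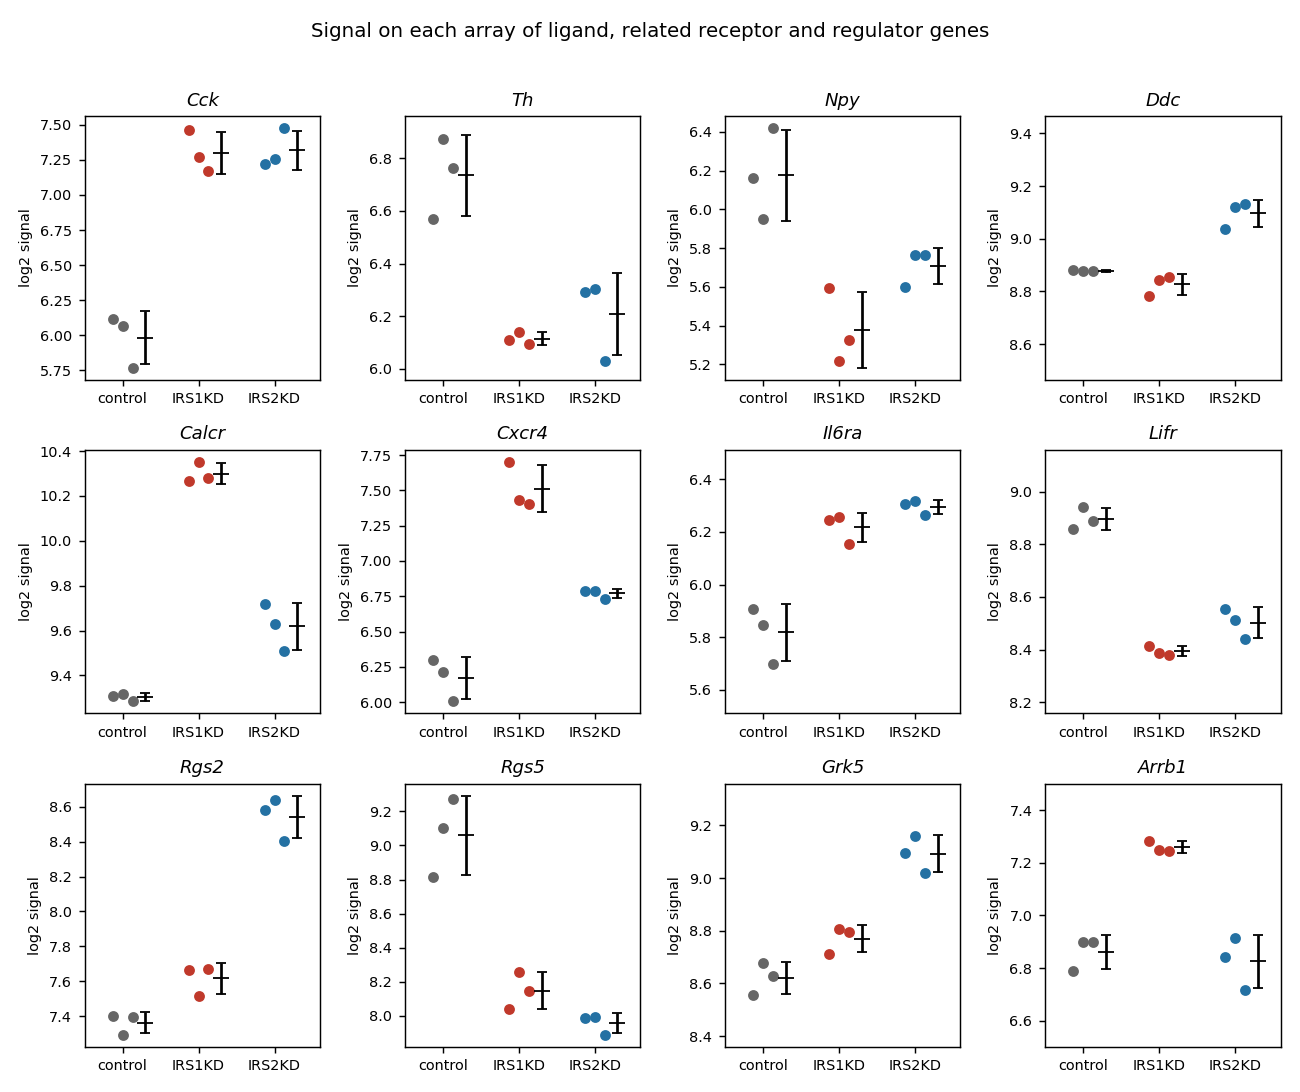
Log2 signal on each array (y axes, each panel with its own range) of 12 genes for ligands and their enzymes, related receptors and receptor regulators in control (grey), alphaIRS1KD (red) and alphaIRS2KD cells (blue), with the mean and SD of the 3 arrays in black. Cck and Il6ra are above control in both knockdowns, whereas Rgs2 is highest in alphaIRS2KD and Calcr and Cxcr4 in alphaIRS1KD cells.

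Of 44 receptors from the same families outside the list, 38 were measured, of which 4 were higher and 1 was lower in alphaIRS1KD cells than in control cells and 3 higher and 1 lower in alphaIRS2KD cells, while 2 were higher and 0 lower in alphaIRS1KD than in alphaIRS2KD cells. The shares of all genes given beside the ligands apply here too, with 1.71% higher and 2.42% lower between the knockdowns. Cxcr4, the receptor of the chemokine CXCL12, had signals of 6.30, 6.21 and 6.01 in control cells, 7.70, 7.43 and 7.40 in alphaIRS1KD cells and 6.79, 6.79 and 6.73 in alphaIRS2KD cells. The signal was 2.53-fold higher in alphaIRS1KD (log2 difference 1.34, adjusted p = 7.38e-05, limma) and 1.51-fold higher in alphaIRS2KD cells (0.60, adjusted p = 0.0203, limma). Calcr, the calcitonin receptor, a class B receptor, had means of 9.30, 10.30 and 9.62 and followed the same order (adjusted p = 3.49e-05 and 0.0456 against control, limma). These were the 2 called between the knockdowns (Cxcr4 0.74, adjusted p = 0.00317, and Calcr 0.68, adjusted p = 0.000447, limma).

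The cytokine receptors of that group moved in both directions. Il6ra, the ligand-binding subunit for interleukin 6, was higher in alphaIRS1KD (0.40, adjusted p = 0.00598, limma) and alphaIRS2KD cells (0.48, adjusted p = 0.00728, limma). Lifr, the receptor of leukemia inhibitory factor, had means of 8.90 for control, 8.39 for alphaIRS1KD and 8.50 for alphaIRS2KD cells (adjusted p = 0.000515 and 0.00585, limma). Gprc5c, an orphan class C receptor, was higher in alphaIRS1KD cells (0.33, adjusted p = 0.0254, limma).

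Proteins that switch receptors off or escort them were the last list. Of 37 measured genes of 40 listed, alphaIRS1KD cells had 3 called higher and 3 called lower, and alphaIRS2KD cells 4 called higher and 1 called lower, while 3 were higher and 2 lower in alphaIRS1KD than in alphaIRS2KD cells, beside the same shares of all genes. Rgs2, which shortens Gq signals by speeding GTP hydrolysis, had 7.40, 7.29 and 7.39 in control cells, 7.66, 7.51 and 7.67 in alphaIRS1KD cells and 8.58, 8.64 and 8.41 in alphaIRS2KD cells. Rgs2 was 2.27-fold above control in alphaIRS2KD cells (log2 difference 1.18, adjusted p = 0.000206, limma), and lower in alphaIRS1KD than in alphaIRS2KD cells (-0.93, adjusted p = 0.000267, limma). Rgs5, a regulator of the same family, was lower in both knockdowns, with means of 9.06, 8.15 and 7.96 (adjusted p = 0.00135 and 0.00166, limma), and Rgs7, which acts on Gi-type subunits, was higher in both, with 8.91, 9.44 and 9.31 (adjusted p = 0.000329 and 0.00483, limma).

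In alphaIRS1KD cells, Arrb1, which encodes a beta-arrestin that uncouples receptors from G proteins, was 1.32-fold higher than in control (adjusted p = 0.00551, limma), and Gpsm2, which binds inactive Gi subunits, was 1.28-fold higher (adjusted p = 0.00217, limma). Both were also higher than in alphaIRS2KD cells (0.43 and 0.37, adjusted p = 0.0054 and 0.00272, limma), as was Rgs19, another member of the Rgs family (0.37, adjusted p = 0.03, limma). Rgs16 and Rgs17 were lower in alphaIRS1KD cells than in control (-0.36 and -0.28, adjusted p = 0.0392 and 0.0375, limma). Rgs16 had similar means in both knockdowns, at 8.59 in alphaIRS1KD and 8.61 in alphaIRS2KD cells against 8.95 in control, but was not called in alphaIRS2KD cells. In alphaIRS2KD cells, Grk5, a kinase that phosphorylates active receptors, was 1.39-fold higher (adjusted p = 0.00512, limma), and it was lower in alphaIRS1KD than in alphaIRS2KD cells (-0.32, adjusted p = 0.0178, limma). Socs2, an inhibitor of growth hormone signaling and so a partner of Ghr, had means of 6.64 for control, 7.09 for alphaIRS1KD and 7.33 for alphaIRS2KD cells, and passed the test in the latter (0.69, adjusted p = 0.0361, limma).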

How the data were processed

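Affymetrix arrays measured the RNA of alpha TC6 cells, with 3 arrays each for control, alphaIRS1KD and alphaIRS2KD. The authors processed the scanned intensities with RMA (version not given in the sources used here), so the deposited values are log2 signals, with background removed, arrays brought to a common scale and probes combined per transcript. Differences near background and among the brightest signals can be understated in such values. The values were used as deposited, and array medians lay between 5.03 and 5.11. Of 41345 probes, 23521 carried 1 symbol, 1820 several and 16004 none. The brightest probe was kept for each of 22180 genes. Arrays have no depth, and precision is limited by the number of arrays.

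Groups were compared with limma 3.58.1 in R 4.3.3, all 9 arrays being fitted together and p-values adjusted by Benjamini-Hochberg over the 22180 genes, and called at an adjusted p under 0.05. The fit was tested on simulated data. Receptors called in any comparison are given array by array. The others are given by family, and named where an unadjusted p was under 0.05 or the signal passed the background limit. From the ligand, related receptor and regulator lists, up to 4 called genes per comparison and direction are named. Alternatives covered thresholds, the Student test of the methods, array weights, normalization, filters on dim genes, probe choice, the replicate number as a block, and each array left out. The receptors and lists were chosen with earlier results of these data known, and G protein coupling was assigned after the values had been seen.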

Additional observations from a re-analysis of the deposited data

Results flagged for a closer look

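For 7 receptors, the log2 fold change against control differed between the knockdowns. The limma test is that of the comparison between the knockdowns given above, since the control values cancel out of the difference. In alphaIRS1KD minus alphaIRS2KD cells it was -1.74 for Ghsr (adjusted p = 0.000657), -1.415 for Npr3 (adjusted p = 2.31e-05), -1.27 for Cckbr (adjusted p = 0.000715) and -0.91 for Avpr1b (adjusted p = 0.000551), with every alphaIRS1KD array below every alphaIRS2KD array. For Ffar4 it was 0.68 (adjusted p = 0.0113) and for Ghr 0.40 (adjusted p = 0.011), with every alphaIRS1KD array above. For Tshr, which was above control in both knockdowns, it was -0.37 (adjusted p = 0.00391), with no overlap. The number of lines per hairpin is not given in the sources used here, and substrate and line cannot be told apart.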

How the results depend on the processing

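The 22 calls of receptors were recomputed under 24 other settings, except that Drd2, which lies below the background limit, had 23, and 0 changed direction. The calls of Ghsr, Npr3, Avpr1b, Cckbr, Ghr and Tshr in alphaIRS1KD against control, of Tshr in alphaIRS2KD against control and of Npr3 between the knockdowns passed under all 24. Counts of called receptors moved more. The counts of 7 higher in alphaIRS1KD, 3 higher and 1 lower in alphaIRS2KD against control, and 2 higher and 5 lower in alphaIRS1KD against alphaIRS2KD became 3, 2, 0, 0 and 5 at an adjusted p under 0.01, and 2, 2, 0, 1 and 4 with at least 1.5-fold. With the methods' Student test they were 4, 1, 0, 0 and 2 after Benjamini-Hochberg adjustment, while its unadjusted p under 0.05 gave 7 lower in alphaIRS1KD (4 in the main test) and 5 lower in alphaIRS2KD cells. Median centring left 4 higher in alphaIRS1KD and 0 lower in alphaIRS2KD cells. With only the compared groups in the fit, 0 were lower in alphaIRS2KD cells and 1 higher in alphaIRS1KD than in alphaIRS2KD cells. The count lower in alphaIRS2KD cells was 2 with array weights, with quantile normalization and with a trended, robust prior, and 3 at an adjusted p under 0.1, above the background limit alone or without the dimmest 30 percent of genes. Leaving out 1 array gave 3 to 6 higher in alphaIRS1KD, 0 to 2 lower in alphaIRS2KD and 1 to 2 higher in alphaIRS1KD than in alphaIRS2KD cells. The lowest of these were reached without alphaIRS1KD replicate 2. The cause of these shifts was not tested. The replicate numbers did not pair the samples (correlations from -0.0835 to 0.0173), and a replicate block kept 19 of the 22 calls, with 0 lower in alphaIRS2KD cells. It lost Drd2 in alphaIRS1KD and Avpr1b and Vipr1 in alphaIRS2KD cells.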
